A study of Mus musculus with 12 samples.

Results

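A set of 10 core genes of the circadian clock, of 55348 genes counted, was followed across 4 genotypes in the hearing epithelium of the mouse cochlea, the organ of Corti. The genes were taken by symbol, and each symbol matched 1 gene: Per1, Per2, Per3, Cry1, Cry2, Arntl (which encodes BMAL1), Clock, Nr1d1, Nr1d2 and Dbp. All 10 passed the filter on low counts, as did 19052 genes in all. RNA was sequenced from wild-type mice, from Clrn1-/- mice (a constitutive deletion of exon 4 of Clrn1 made with PGK-cre), from Clrn2-/- mice (the nonsense clarinet allele of Clrn2) and from Clrn1-/-Clrn2-/- mice obtained by crossing. Clarins are membrane proteins that the sensory hair cells need for hearing. Each genotype had 3 libraries at postnatal day 21, 12 in all, made from dissected organs of Corti from which the stria vascularis and the modiolus had been removed. Wild-type mice came from breedings of their own rather than from the mutant litters, so breeding and genotype cannot be told apart. The hour of collection and the light cycle are not given in the sources used here. It is not stated whether a library came from 1 mouse or several, so the p-values measure the spread between libraries.

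The clock is a loop of transcription factors that most cells hold. CLOCK and BMAL1 bind E-box sequences together and switch on the Period, Cryptochrome and REV-ERB genes (Nr1d1 and Nr1d2) and the output gene Dbp. The PER and CRY proteins then shut CLOCK-BMAL1 off, while the REV-ERB proteins repress Arntl, Clock and Cry1 through ROR elements that the ROR proteins use to activate them. The cochlea is known to hold such a clock of its own, and Per2 is the usual reporter of its rhythm.

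Depth was between 30008679 and 41049302 counts on genes per library, and the lowest count of any of the 10 genes in a library was 429, for Arntl. Levels are in CPM, the count of a gene scaled to the same TMM-normalized library total in every library. Clrn1 was at 23.8 to 28.6 CPM in wild-type libraries and at 1.77 to 3.04 CPM in the libraries carrying the Clrn1 deletion. Clrn2, whose allele is a nonsense change, was at 1.89 to 3.24 CPM in wild-type and 1.04 to 1.38 CPM in Clrn2-/- libraries. It was at 0.921 to 1.18 CPM in Clrn1-/-Clrn2-/- and 0.854 to 1.04 CPM in Clrn1-/- libraries. Its level was thus not lower in Clrn2-/- than in Clrn1-/- libraries, whose ranges met at 1.04 CPM. Hair cell markers were present in every library (Otof at 75.9 to 123 CPM), as were supporting cell markers (Gjb2 at 323 to 555 CPM).

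The gene positions below are those of the GRCm38 build (Gencode M21). On the plus strand lie Per1 (chr11:69095217-69109960), Arntl (chr7:113207465-113314126) and Dbp (chr7:45705088-45710203). On the minus strand lie Per2 (chr1:91415982-91459324), Per3 (chr4:151003652-151044665), Cry1 (chr10:85131700-85185064), Cry2 (chr2:92403646-92434043), Clock (chr5:76209868-76304792), Nr1d1 (chr11:98767932-98775333) and Nr1d2 (chr14:18204054-18239127). The exons of Nr1d1 share 263 bases with those of Thra, a thyroid hormone receptor gene on the other strand, and the exons of Dbp share 539 bases with those of Sphk2 on the other strand. Counting used the strand, and values are reverse-strand counts throughout.

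RefSeq promoters (GRCm38.p6, 250 bases before to 50 bases after a transcript start) were listed for 9 of the 10 genes, all but Per2. There were 13 promoters in all, and 6 genes had at least 1 clock motif there. Clock, Nr1d2 and Dbp had no match. The share of all promoters holding any of the motifs was not counted. The letters searched on both strands were the E-box CACGTG, the E'-box CACGTT, the D-box forms TTATGTAA and TTACGTAA, the ROR element core TAGGTCA and the cyclic AMP response element TGACGTCA. Among 32851 promoters of the same length, 7.15% held the E-box, 4.68% the E'-box, 0.938% the TTATGTAA form and 0.119% the TTACGTAA form of the D-box, 2.61% the ROR element core and 1.79% the cyclic AMP response element. Of the 13 promoters of the clock genes, 2 held the E-box, 3 the E'-box, 1 the TTATGTAA form and 1 the ROR element core. The TTACGTAA form and the cyclic AMP response element were in 0 of 13. The windows with a match are shown because E-boxes and ROR elements are the kinds of sequence named in the loop above. The D-box belongs to neither arm described there. Matches are in capitals, on the strand of the gene. An E'-box appears as AACGTG where it lies on the other strand. The Per1 E-box starts 166 bases before the transcript start (window chr11:69098736-69098835), the Cry1 E'-box and E-box start 79 and 60 bases before it (chr10:85185072-85185171), the Cry2 E'-box 166 bases before it (chr2:92434183-92434282), the Nr1d1 E'-box 28 bases before it (chr11:98775378-98775477) and the 2 Per3 D-boxes 205 and 158 bases before it (chr4:151044794-151044893). The Arntl match starts 30 bases after the start (chr7:113207529-113207558). The RefSeq starts used for Cry2 and Nr1d1, at chr2:92434069 and chr11:98775377, lie upstream of the Gencode M21 gene ends given above, and the distances are from the RefSeq starts.
Per1: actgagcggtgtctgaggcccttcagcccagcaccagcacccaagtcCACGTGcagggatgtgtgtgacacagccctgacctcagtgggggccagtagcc
Cry1: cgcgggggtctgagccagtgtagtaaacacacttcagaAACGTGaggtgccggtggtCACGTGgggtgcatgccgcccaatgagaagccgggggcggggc
Cry2: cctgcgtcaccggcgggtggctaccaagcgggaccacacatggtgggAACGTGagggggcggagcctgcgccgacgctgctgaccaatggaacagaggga
Nr1d1: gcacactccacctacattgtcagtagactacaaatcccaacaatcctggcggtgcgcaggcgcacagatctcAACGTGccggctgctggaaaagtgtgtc
Per3: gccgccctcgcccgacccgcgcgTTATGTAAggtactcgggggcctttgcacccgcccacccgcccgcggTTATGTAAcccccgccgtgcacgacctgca
Arntl: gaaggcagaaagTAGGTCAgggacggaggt
A match is a string of letters and was not tested for binding.

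In wild-type libraries the levels per kilobase of exon ran over a wide range. Dbp, an activator of genes with D-boxes, was highest at 52.4 ± 6.28 CPM per kb (SD, n = 3), followed by Nr1d2 at 42.3 ± 4.21, Nr1d1 at 35.4 ± 2.45, Per1 at 25.0 ± 1.68 and Cry2 at 14.9 ± 1.03 CPM per kb. Below them came Per3 at 8.11 ± 0.281, Clock at 6.02 ± 0.145, Per2 at 5.25 ± 0.617, Cry1 at 4.51 ± 0.258 and Arntl at 1.70 ± 0.259 CPM per kb. The libraries of neighbours in this order overlapped only for Per2 and Cry1. In Clrn1-/-Clrn2-/- libraries the order changed in 2 places: Nr1d1, at 44.5 ± 3.92 CPM per kb, lay above Nr1d2, at 35.7 ± 1.04 CPM per kb, with no overlap, and Per2, Cry1 and Clock could not be ordered. Dbp, at 48.8 to 56.1 CPM per kb, kept the highest mean there but overlapped with Nr1d1, at 41.6 to 49.0 CPM per kb.

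**Figure D1:**
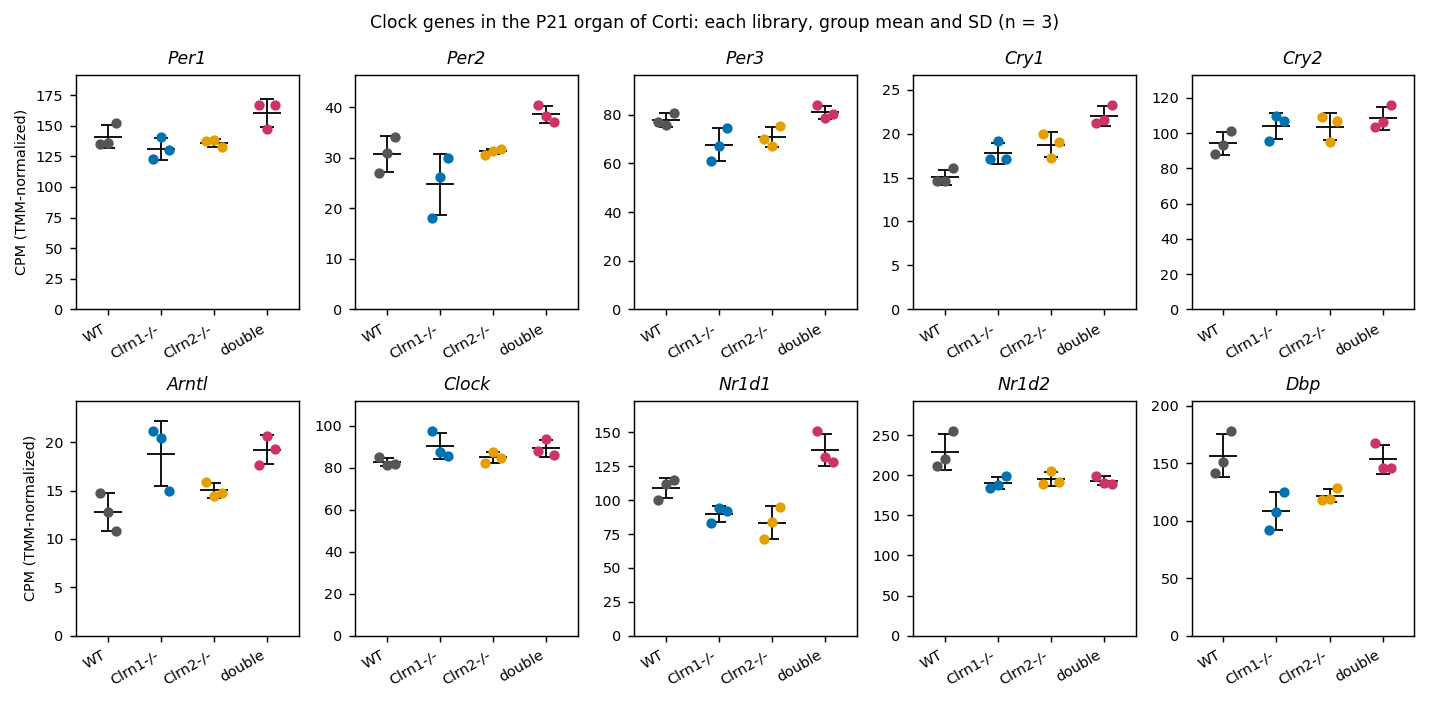
CPM (vertical axes, linear from 0) of the 10 clock genes in each library, grouped by genotype (WT, wild-type; double, Clrn1-/-Clrn2-/-); points are libraries, horizontal bars means and error bars SDs over 3 libraries. Dbp lies lower in the single mutants than in the other genotypes, Nr1d1 is highest in the double mutant, from 128 to 151 CPM, and Cry1 lies above wild-type in all 3 mutants.

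Each comparison is given with 2 counts. A gene was called when its Benjamini-Hochberg adjusted p over all 19052 genes, from edgeR's quasi-likelihood test, was at most 0.05 and its change at least 1.5-fold. Since few clock genes moved that far, the count at the adjusted p alone was added after the values were seen, and "higher" or "lower" below refers to it. A log2 fold change is given with its standard error, mutant minus wild-type unless stated.

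In Clrn1-/- organs of Corti the output gene Dbp and the repressors Nr1d1, Nr1d2 and Per3 were lower than in wild-type, and Arntl and Cry1 were higher. None of the 10 genes was called by edgeR, DESeq2 or limma-voom, against 7.22% of all genes tested by edgeR, although 9 had an unadjusted p under 0.05. At the adjusted p alone 6 of 10 passed, 2 higher and 4 lower, against 26.9% of all genes, and the median log2 fold change of the 10 was -0.15 against -0.0031 for all genes.
Dbp stood at 142, 151 and 178 CPM in wild-type and at 91.9, 108 and 125 CPM in Clrn1-/- libraries, a log2 fold change of -0.53 ± 0.10 (adjusted p = 0.000709). The 2 groups did not overlap. Arntl, the partner of CLOCK, stood at 14.7, 12.8 and 10.9 CPM in wild-type and at 21.1, 20.4 and 14.9 CPM in Clrn1-/- libraries, a log2 fold change of 0.55 ± 0.12 (adjusted p = 0.0035). Here the lowest Clrn1-/- library lay just above the highest wild-type one. Nr1d2 fell by 0.27 on the log2 scale (adjusted p = 0.00418), Nr1d1 fell by 0.28 (adjusted p = 0.0278) and Per3 fell by 0.20 (adjusted p = 0.0257). Cry1, a repressor of CLOCK-BMAL1, was higher by 0.24 ± 0.075 (adjusted p = 0.0271). For Per1, Per2, Cry2 and Clock the adjusted p lay between 0.0782 and 0.22. With the replicate number as a block, the same 6 genes passed, and Per2 (adjusted p = 0.0503) and Cry2 (adjusted p = 0.0822) did not. It is not known whether the numbers pair the libraries.
Dbp, Arntl and Nr1d2 passed in each of the 12 fits that left out 1 library, with a highest adjusted p of 0.00445, 0.0209 and 0.0251. Per3 no longer passed without wild-type 1, wild-type 3, Clrn1-/- 1 or Clrn1-/- 2 (highest adjusted p = 0.133), Cry1 without wild-type 1, wild-type 2 or Clrn1-/- 2 (0.117) and Nr1d1 without wild-type 2, wild-type 3, Clrn1-/- 1 or Clrn1-/- 3 (0.122), while Dbp and Arntl were called without wild-type 1 or without Clrn1-/- 3. Scaling by library size alone gave Cry1, Cry2, Arntl and Clock higher and Nr1d2 and Dbp lower, a split of 4 to 2 in place of 2 to 4.

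In Clrn2-/- organs of Corti the same REV-ERB genes and Dbp were lower and Cry1 was higher. None of the 10 genes was called by edgeR, DESeq2 or limma-voom, against 2.66% of all genes by edgeR, and 5 had an unadjusted p under 0.05. At the adjusted p alone 4 passed, 1 higher and 3 lower, against 14.2% of all genes.
Nr1d1 stood at 100, 112 and 115 CPM in wild-type and at 71.0, 84.2 and 95.2 CPM in Clrn2-/- libraries, a log2 fold change of -0.39 ± 0.089 (adjusted p = 0.00846). No library of the 2 groups overlapped. Dbp stood at 118, 119 and 128 CPM in Clrn2-/- libraries and fell by 0.37 relative to wild-type (adjusted p = 0.0182). Nr1d2 fell by 0.23 (adjusted p = 0.0189), and Cry1 was higher by 0.32 ± 0.075 (adjusted p = 0.00994), at 19.96, 17.2 and 19.1 CPM against 14.6, 14.5 and 16.04 CPM in wild-type. Each of these genes separated the groups in every library. Arntl, at 15.9, 14.4 and 14.8 CPM, overlapped with wild-type (0.23 ± 0.12, adjusted p = 0.245), and Per2 differed by 0.02, with a 95% confidence interval of -0.24 to 0.29.
Cry1 and Nr1d1 passed in each of the 12 fits that left out 1 library. Dbp no longer passed without wild-type 3, Clrn2-/- 1 or Clrn2-/- 2 (highest adjusted p = 0.0619) and Nr1d2 without wild-type 3, Clrn2-/- 1 or Clrn2-/- 3 (0.0759). Nr1d2 also did not pass in a fit to these 2 genotypes only.

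In Clrn1-/-Clrn2-/- organs of Corti the pattern differed: Nr1d1, Per1 and Per2 were higher than in wild-type, Nr1d2 stayed lower, Dbp did not pass, and Cry1, Cry2 and Arntl were higher. Of the 10 genes 1, Arntl, was called, against 9.90% of all genes, and 7 passed at the adjusted p alone, 6 higher and 1 lower, against 37.0% of all genes. The median log2 fold change of the 10 was 0.19, against 0.001 for all genes.
Nr1d1 stood at 151, 132 and 128 CPM, above every library of the other 3 genotypes, with a log2 fold change from wild-type of 0.33 ± 0.088 (adjusted p = 0.00762). Nr1d2 stood at 199.6, 190.5 and 189.3 CPM against 211, 221 and 255 CPM in wild-type and fell by 0.24 (adjusted p = 0.00457). The 2 REV-ERB genes, which encode repressors of the same ROR elements, thus moved in opposite directions relative to wild-type. Per1 was higher by 0.18 ± 0.060 (adjusted p = 0.0243) and Per2 by 0.33 ± 0.12 (adjusted p = 0.0496). Per2 stood at 40.5, 38.3 and 37.1 CPM against 27.0, 31.1 and 34.2 CPM in wild-type. The Per2 groups did not overlap, whereas those of Per1 did.
Cry1 showed the smallest adjusted p of the 10 genes in this comparison, with 21.1, 21.6 and 23.2 CPM and a log2 fold change of 0.55 ± 0.075 (adjusted p = 2.73e-05). Its 3 libraries lay above all 9 others. Arntl stood at 17.7, 20.6 and 19.3 CPM (0.59 ± 0.12, adjusted p = 0.00133) and Cry2 at 104, 106 and 116 CPM (0.21 ± 0.067, adjusted p = 0.0236). Dbp, at 168, 146 and 146 CPM, differed from wild-type by -0.03, with a 95% confidence interval of -0.24 to 0.17, and Per3 by 0.06, with an interval of -0.08 to 0.19. Clock reached an adjusted p of 0.101.
Arntl lay at the edge of the 1.5-fold limit (1.50-fold) and was not called with DESeq2, without the filter on low counts, with unstranded counts, or without any 1 of 9 libraries (wild-type 2 and 3, Clrn1-/- 1, 2 and 3, Clrn2-/- 2 and 3, Clrn1-/-Clrn2-/- 2 and 3). Cry1, Arntl and Nr1d2 passed at the adjusted p in each of the 12 fits that left out 1 library. Nr1d1 did not pass without Clrn1-/-Clrn2-/- 1 (adjusted p = 0.0514), Per2 did not in 9 of the 12 fits (up to 0.2), Per1 without wild-type 1, wild-type 2, Clrn1-/-Clrn2-/- 1 or Clrn1-/-Clrn2-/- 3 (up to 0.121) and Cry2 without wild-type 1, wild-type 2 or Clrn1-/-Clrn2-/- 3 (up to 0.135).

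**Figure D2:**
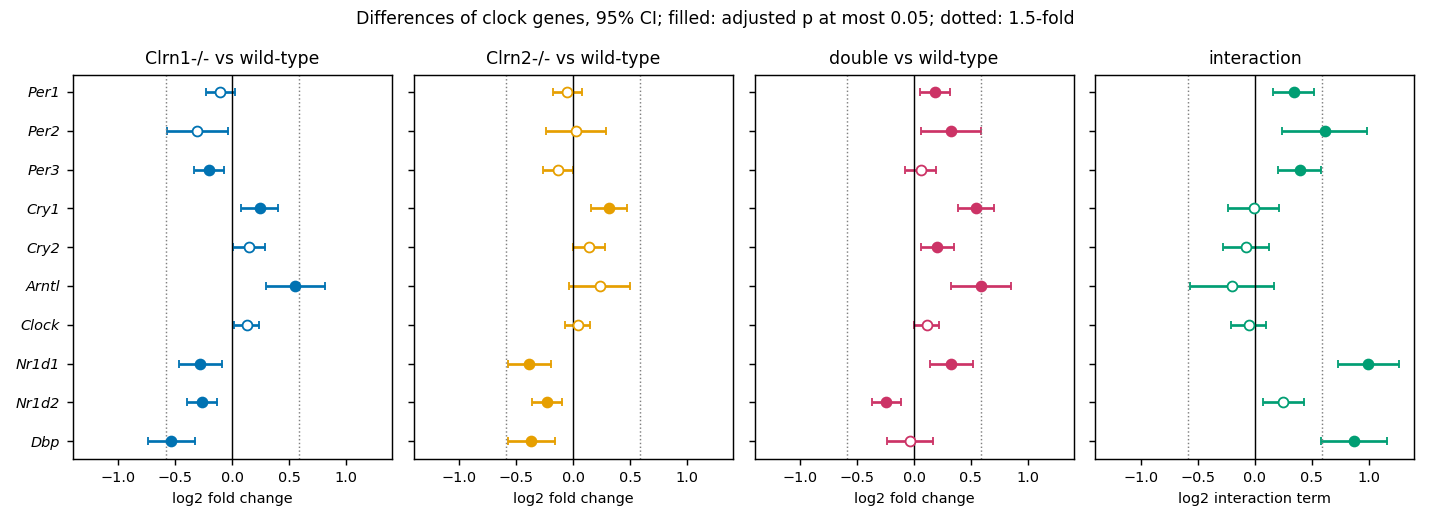
Log2 fold change from wild-type in each mutant (double, Clrn1-/-Clrn2-/-) and the log2 interaction term (horizontal axes) for the 10 clock genes, with 95% confidence intervals; filled points have an adjusted p of at most 0.05 and dotted lines mark 1.5-fold. Dbp and Nr1d1 lie left of 0 in both single mutants, and their interaction terms, 0.87 and 1.00, lie farthest to the right.

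The double mutant was next compared with each single mutant. Against Clrn1-/- libraries, Per2 and Nr1d1 were called, 2 of 10 against 7.23% of all genes, and Per1, Per2, Per3, Cry1, Nr1d1 and Dbp were higher at the adjusted p alone, 6 of 10 against 30.4%. The log2 difference was 0.63 ± 0.13 for Per2 (adjusted p = 0.00107), 0.61 ± 0.088 for Nr1d1 (adjusted p = 7.47e-05) and 0.50 ± 0.096 for Dbp (adjusted p = 0.000854). All 6 separated the 2 groups in every library and passed in each fit that left out 1 library. Neither Per2 nor Nr1d1 was called without Clrn1-/- 1, and Nr1d1 was not called without Clrn1-/-Clrn2-/- 1, so that 0 to 3 genes were called in those fits. Against Clrn2-/- libraries, Nr1d1 alone was called (0.71 ± 0.089, adjusted p = 3.1e-05), 1 of 10 against 5.10% of all genes, and 6 of 10 were higher at the adjusted p alone, against 27.6%. The other 5 were Per1, Per3, Cry1, Arntl and Dbp, with log2 differences of 0.19 to 0.36. In fits that left out 1 library 2 to 7 genes passed. Per1 no longer did without Clrn1-/-Clrn2-/- 1 or 3, Dbp without Clrn2-/- 1, Clrn2-/- 2 or Clrn1-/-Clrn2-/- 1, Cry1 without Clrn2-/- 2 or 3 or Clrn1-/-Clrn2-/- 2 or 3, and Per3 and Arntl did not in 6 and 7 of the 12 fits. Between the 2 single mutants no clock gene was called, against 4.73% of all genes, and none passed at the adjusted p alone, against 18.5%, by edgeR. At an unadjusted p under 0.05 there were 2, Per2 and Arntl, and at the adjusted p limma-voom gave none and DESeq2 gave 1, Per2. edgeR gave 3 without the filter on low counts (Per2, Arntl and Dbp), 1 with the replicate block and 0 to 3 with 1 library left out. The largest difference there was that of Per2, -0.33 with a 95% confidence interval of -0.60 to -0.06.

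Whether the double mutant departed from the sum of the 2 single mutants was tested as an interaction term, which is 0 when the 2 log2 fold changes add. Of the 10 genes 3 were called, Per2, Nr1d1 and Dbp, against 5.50% of all genes, and Per1 and Per3 passed at the adjusted p alone, 5 of 10 against 17.4%. All 5 terms were positive, so the double mutant stood above the sum. The term was 1.00 ± 0.13 for Nr1d1 (adjusted p = 7.68e-05), 0.87 ± 0.14 for Dbp (adjusted p = 0.000432), 0.61 ± 0.18 for Per2 (adjusted p = 0.0257), 0.39 ± 0.088 for Per3 (adjusted p = 0.00613) and 0.34 ± 0.085 for Per1 (adjusted p = 0.0118). Nr1d2 reached 0.25 ± 0.086 (adjusted p = 0.0565). For Cry1 the term was -0.01, with a 95% confidence interval of -0.23 to 0.21, for Cry2 -0.08 (-0.28 to 0.12), for Clock -0.05 (-0.21 to 0.10) and for Arntl -0.20 (-0.57 to 0.17). Nr1d1 and Dbp were called, and Per1 and Per3 passed, in each fit that left out 1 library. Per2 was not called in 6 of these 12 fits and did not pass without Clrn2-/- 1, Clrn2-/- 2, Clrn1-/-Clrn2-/- 1 or Clrn1-/-Clrn2-/- 2 (highest adjusted p = 0.0644). The comparisons with wild-type share the wild-type libraries, and the interaction uses all 12.

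Markers of several cell types moved with genotype. Counts of markers higher or lower are to be read against the shares of all genes passing at the adjusted p alone. Against wild-type these were 26.9%, 14.2% and 37.0% for Clrn1-/-, Clrn2-/- and Clrn1-/-Clrn2-/- libraries. They were 30.4% for the double mutant against Clrn1-/- and 17.4% for the interaction. In the double mutant against wild-type 9.90% of all genes were called. The summed level of red blood cell markers was 700.3 to 1139 CPM for wild-type, 278 to 379 CPM for Clrn1-/-, 426 to 642 CPM for Clrn2-/- and 535 to 714 CPM for Clrn1-/-Clrn2-/- libraries, and 5 of 5 markers were lower than wild-type in each mutant, including the double mutant, in which Dbp did not pass. Their interaction terms were positive at the adjusted p in 5 of 5, as was that of Dbp. Neuronal markers were at 10720 to 11730 CPM in wild-type and at 7219 to 7346 CPM in Clrn1-/-Clrn2-/- libraries, where 6 of 8 were lower, as were 3 of 8 in each single mutant. Hair cell markers were at 450.0 to 513 CPM in wild-type and 585 to 616 CPM in Clrn1-/-Clrn2-/- libraries, where 5 of 9 were higher than in wild-type and 1 lower, and 7 of 9 higher than in Clrn1-/-. Against wild-type 2 of 9 were higher and 2 lower in Clrn1-/- libraries, and 3 were higher in Clrn2-/- libraries. Supporting cell markers were at 1148 to 1195 CPM in wild-type and 1527 to 1576 CPM in Clrn1-/-Clrn2-/- libraries, where 6 of 8 were higher. In Clrn1-/- libraries 5 of 8 were higher and 2 lower, and in Clrn2-/- libraries 3 were higher and 1 lower. Macrophage markers were at 108 to 140 CPM in wild-type, 168 to 179 CPM in Clrn1-/- and 168 to 197 CPM in Clrn1-/-Clrn2-/- libraries, and fibroblast markers at 1574 to 1890, 2009 to 2228 and 2333 to 2514 CPM. Bone markers were at 75 to 138 CPM in wild-type, 152 to 183 CPM in Clrn1-/-, where 1 of 5 was higher, and 138 to 165 CPM in Clrn1-/-Clrn2-/- libraries, where 2 were higher and 1 lower. Skeletal muscle markers stayed at or below 3.18 CPM in sum, and no marker was at 0 in any library. Myelin markers summed to 18830 to 20990 CPM over the 12 libraries, with 1 of 6 higher and 2 lower in the double mutant. Those of the removed stria vascularis summed to 417 to 666 CPM, with 1 of 6 called higher and 3 called lower in the double mutant (median log2 fold change of -0.77). The part of these cell types in the clock gene differences was not tested, and in whole tissue fewer cells of a type and less RNA per cell cannot be told apart.

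Ratios between 2 clock genes of the same library do not depend on the scaling. Those named here were formed after the values were seen, 3 ratios compared between the 4 genotypes in 18 comparisons. The ratio of Nr1d1 to Nr1d2 was 0.475, 0.508 and 0.450 for wild-type, 0.452, 0.501 and 0.460 for Clrn1-/-, 0.377, 0.410 and 0.497 for Clrn2-/- and 0.755, 0.693 and 0.677 for Clrn1-/-Clrn2-/- libraries. Every double mutant library lay above all 9 others. The ratio of Dbp to Arntl was 12.6 ± 3.46 (SD, n = 3) in wild-type, 6.004 ± 2.11 among Clrn1-/-, 8.12 ± 0.644 among Clrn2-/- and 8.05 ± 1.27 in Clrn1-/-Clrn2-/- libraries. All 9 mutant libraries lay below all 3 wild-type ones, the closest being a Clrn1-/-Clrn2-/- library at 9.50 and a wild-type library at 9.59. The ratio of Cry1 to Cry2 was 0.160 ± 0.0045 for wild-type, 0.171 ± 0.0099 for Clrn1-/-, 0.181 ± 0.0021 for Clrn2-/- and 0.203 ± 0.0020 for Clrn1-/-Clrn2-/- libraries. Exact two-sided permutation tests of 3 against 3 libraries cannot give a p below 0.1, the value reached wherever the groups did not overlap, so none of the 18 comparisons can pass.

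**Figure D3:**
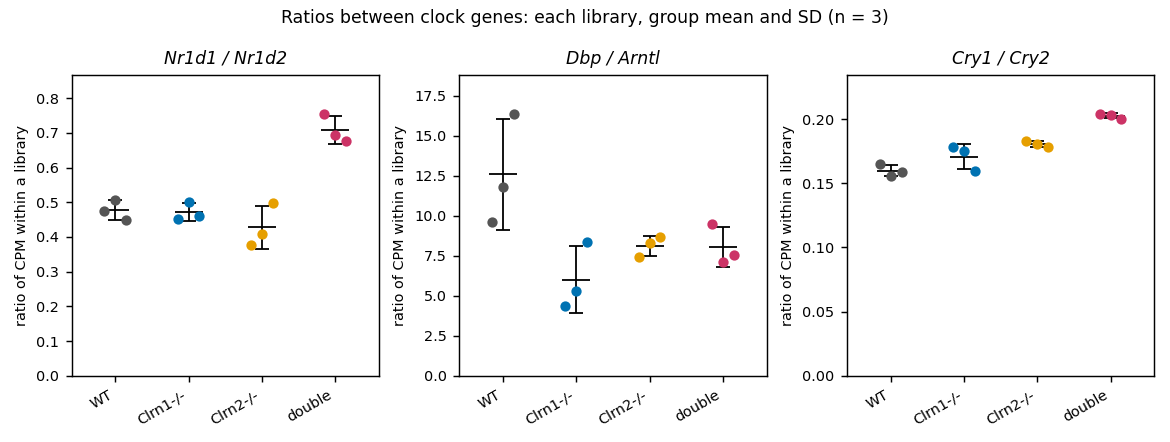
Ratio of CPM within a library (vertical axes, from 0) of Nr1d1 to Nr1d2, Dbp to Arntl and Cry1 to Cry2 by genotype (WT, wild-type; double, Clrn1-/-Clrn2-/-); points are libraries, horizontal bars means and error bars SDs over 3 libraries. The double mutant stands apart in the ratios of Nr1d1 to Nr1d2 and of Cry1 to Cry2, and wild-type lies above all mutants in that of Dbp to Arntl.

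As a single description of the loop, the mean log2 CPM of the 6 genes driven by CLOCK-BMAL1 (Per1, Per2, Per3, Nr1d1, Nr1d2, Dbp) minus that of Arntl, Clock and Cry1 was taken in each library. This difference was 2.06 ± 0.17 for wild-type, 1.46 ± 0.26 for Clrn1-/-, 1.67 ± 0.089 for Clrn2-/- and 1.75 ± 0.13 for Clrn1-/-Clrn2-/- libraries. It was lower than wild-type by 0.59, 0.39 and 0.31 on average, but a Clrn1-/-Clrn2-/- library at 1.89 lay above a wild-type library at 1.88. It is given without a test.

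Several clock genes varied between libraries of the same genotype more than most genes did. The within-genotype SD of log2 CPM was 0.21 for Per2, larger than that of 97.8% of the 10955 genes averaging 10 CPM or more, 0.19 for Arntl (97.0%), 0.15 for Dbp (94.5%) and 0.14 for Nr1d1 (92.9%). The median gene had an SD of 0.07, and Clock, at 0.06, lay below it. Per2 ranged from 18.1 to 29.9 CPM among the Clrn1-/- libraries and from 30.7 to 31.7 CPM among the Clrn2-/- libraries. The library with the highest Dbp was also the one with the lowest Arntl in 3 of the 4 genotypes, Clrn2-/- being the exception. These rankings were looked at after the values were seen.

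Across the 12 libraries, which share genotype and preparation, the Pearson correlation of log2 CPM with Dbp was 0.94 for Per3, 0.81 for Per2, 0.77 for Nr1d1, 0.71 for Per1 and 0.66 for Nr1d2. It was -0.50 for both Arntl and Clock and near 0 for Cry1 (0.02) and Cry2 (-0.004). Of 12443 genes averaging 5 CPM or more, the 5 most like Dbp outside the 10 were Bhlhe41 (0.94), Tle5 (0.92), Gm10638 (0.92), Ppp1r1b (0.92) and Ubl5 (0.90). Bhlhe41 encodes a repressor that competes for E-boxes. The 5 most like Arntl were Nol4l (0.97), Zbtb10 (0.95), Setd2 (0.95), Znrf3 (0.94) and Npas2 (0.94). Npas2 encodes a stand-in for CLOCK as the partner of BMAL1. With genotype means removed, the correlations were 0.606 (Tle5) to 0.856 (Bhlhe41) for the 5 with Dbp. For the 5 with Arntl they were 0.837 (Znrf3) to 0.901 (Nol4l).

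A list of 28 further genes of the clock pathway was tested in full. Relative to wild-type, 1 was called in Clrn1-/- libraries, Npas2, with 7 higher and 5 lower at the adjusted p alone, none was called by edgeR in Clrn2-/- libraries, with 4 higher and 2 lower (11 at an unadjusted p under 0.05), and 5 were called in Clrn1-/-Clrn2-/- libraries, all higher, with 11 higher and 3 lower. Of all genes tested, 7.22%, 2.66% and 9.90% were called and 26.9%, 14.2% and 37.0% passed at the adjusted p alone in these 3 comparisons. The median log2 fold changes of the list were 0.03, 0.01 and 0.05.
Npas2 was at 4.23 to 7.92 CPM in wild-type, 7.66 to 12.8 CPM in Clrn1-/- and 8.72 to 11.6 CPM in Clrn1-/-Clrn2-/- libraries (log2 fold changes of 0.75 ± 0.20 and 0.68 ± 0.20, adjusted p = 0.0109 and 0.0143). The Clrn1-/- range overlapped with wild-type. Among the activators at ROR elements, Rora was at 94.7 to 107 CPM in wild-type and at 160 to 169 CPM in Clrn1-/-Clrn2-/- libraries (0.71 ± 0.062, adjusted p = 2.8e-07) and Rorb at 18.3 to 21.7 and at 30.5 to 32.5 CPM (0.69 ± 0.097, adjusted p = 4e-05). Neither overlapped with any single mutant library. Among output genes, Klf10, a transcription factor, was higher by 0.88 ± 0.089 (adjusted p = 1.34e-06) and Pdk4, a kinase that restrains pyruvate use, by 0.70 ± 0.085 (adjusted p = 9.2e-06) in the double mutant. Of the 7 output genes 4 were higher there and 1 lower. Ppargc1a fell without overlap, from 152.9 to 164.7 CPM in wild-type to 115.5 to 120.7 CPM in Clrn1-/-Clrn2-/- libraries. It was at 145.7 to 148.9 CPM in Clrn1-/- and 132.5 to 137.1 CPM in Clrn2-/- libraries.
Of the repressors that act beside PER and CRY, Bhlhe41 fell by 0.35 in Clrn1-/- (adjusted p = 0.00146) and by 0.29 in Clrn2-/- libraries (adjusted p = 0.00991) and did not pass in the double mutant (-0.11, adjusted p = 0.227). This was the order of values seen for Dbp. Cipc, an inhibitor of CLOCK-BMAL1, was higher by 0.25 in Clrn1-/- (adjusted p = 0.00184) and by 0.15 in Clrn1-/-Clrn2-/- libraries (adjusted p = 0.0319). The D-box factors related to Dbp or opposing it, Tef, Hlf and Nfil3, did not pass in any comparison with wild-type, Tef standing at 222 to 278 CPM in all 12 libraries. Among the enzymes that mark PER and CRY for turnover, Csnk1d, a kinase of PER, was higher by 0.16 in Clrn2-/- (adjusted p = 0.0138) and by 0.13 in Clrn1-/-Clrn2-/- libraries (adjusted p = 0.0135). In the double mutant Csnk1e, another kinase of PER, was lower (-0.22, adjusted p = 0.000497), as was Usp2 (-0.32, adjusted p = 0.00265). Usp2, a deubiquitinase, was also lower in Clrn1-/- libraries (-0.38, adjusted p = 0.00128).

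**Figure D4:**
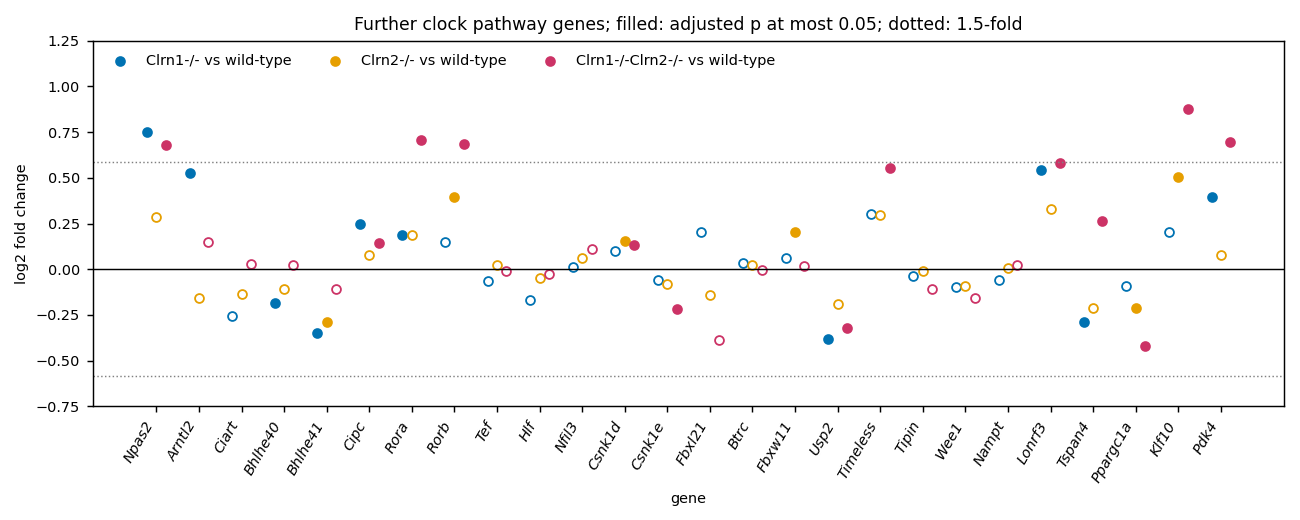
Log2 fold change from wild-type (vertical axis) of further clock pathway genes in Clrn1-/-, Clrn2-/- and Clrn1-/-Clrn2-/- libraries; filled points have an adjusted p of at most 0.05, dotted lines mark 1.5-fold. Rora, Rorb, Klf10 and Pdk4 lie above the upper line in the double mutant, and Npas2 in the double mutant and in Clrn1-/-.

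Per1, Per2 and Nr1d1 also respond to signals from outside the loop, so genes of 3 such responses were counted beside them. Their counts are to be read against the shares of all genes given above for the same comparisons. Immediate-early genes, which neural activity and growth signals switch on, moved in the direction of Per1 and Per2 in the double mutant: 6 of 11 were called higher, Fos, Fosb, Junb, Egr1, Dusp1 and Ier2, and at the adjusted p alone 9 were higher and 1, Arc, lower, where 9.90% of all genes were called and 37.0% passed. Fos was at 3.67 to 5.20 CPM in wild-type and 15.5 to 19.5 CPM in Clrn1-/-Clrn2-/- libraries (log2 fold change of 1.97 ± 0.16, adjusted p = 1.75e-07), and Egr1 at 11.7 to 16.5 and 28.1 to 31.8 CPM (1.08 ± 0.13, adjusted p = 9.01e-06). Fos and Fosb were also called in both single mutants, where Per1 and Per2 did not pass. In Clrn1-/- libraries 6 of the 11 genes were higher and 1, Dusp1, lower, and in Clrn2-/- libraries 5 were higher.
Of 11 targets of the glucocorticoid receptor, none was called in any comparison with wild-type by edgeR (2, 1 and 2 had an unadjusted p under 0.05 in Clrn1-/-, Clrn2-/- and Clrn1-/-Clrn2-/- libraries). At the adjusted p alone Sgk1 and Cdkn1a were higher in Clrn1-/- and Klf9 and Cdkn1a in Clrn1-/-Clrn2-/- libraries. In the double mutant 10 of the 11 had a positive log2 fold change (median 0.15), the exception being Tsc22d3, at -0.11 ± 0.081. Of 7 temperature-responsive genes, the heat shock genes Hspa1a and Hspa1b, near-identical copies whose reads may be shared, were called higher in Clrn2-/- (1.08 and 1.56) and Clrn1-/-Clrn2-/- libraries (1.38 and 2.06). They did not pass in Clrn1-/- libraries, where no gene of the list did by edgeR and 1 had an unadjusted p under 0.05. At the adjusted p alone 4 of 7 were higher in Clrn2-/- and 3 of 7 in Clrn1-/-Clrn2-/- libraries, among them the cold-induced Rbm3, at 49.1 to 52.4 CPM in wild-type, 59.6 to 70.4 CPM in Clrn2-/- and 66.5 to 73.8 CPM in Clrn1-/-Clrn2-/- libraries. Cirbp, also cold-induced, was at 77.1 to 86.1 CPM in wild-type and 89.3 to 104 CPM in Clrn1-/- libraries. It was at 76.2 to 98.7 CPM in Clrn2-/- and 67.65 to 94.8 CPM in Clrn1-/-Clrn2-/- libraries, overlapping with wild-type in both. Its mean in the double mutant, 76.8 CPM, lay below that of wild-type, 82.9 CPM. Hspa8 and Hsph1 did not pass in any of the 3 comparisons. The part of these responses in the clock gene differences was not tested.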

How the data were processed

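RNA of dissected organs of Corti (12 libraries, 3 for each of 4 genotypes, postnatal day 21) was sequenced by the authors as directional poly-A libraries with paired reads of 100 bases. The deposited files hold STAR counts per gene (Gencode vM24, GRCm38.p6), unstranded and for either strand. Reverse-strand counts, which hold 95.2% to 95.6% of the stranded gene counts, were used. The 4 lines of unassigned reads, 13.5% to 15.8%, were left out.

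Counts were scaled by TMM, filtered with filterByExpr (minimum count 10) and fitted for all 12 libraries with genotype as the only term in edgeR 4.0.16 (R 4.3.3), using the quasi-likelihood test. A call needed an adjusted p no higher than 0.05 and a change of 1.5-fold. limma-voom (limma 3.58.1), which the study used, and DESeq2 1.42.0 were alternatives, as were library size alone, no filter, unstranded counts, only the 2 genotypes compared, no fold minimum, a replicate block and leaving out each library. Levels per length used Gencode M21 exons. Correlations used log2 CPM with a prior count of 2. Scripts were tested on simulated data.

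The clock genes and gene lists were chosen with earlier results of these data known. Of the clock pathway list 2 genes are counted but not reported singly here. Named beside the 10 genes were list genes called against wild-type, up to 3 abundant others per list and the 5 genes most like Dbp and Arntl. Other list genes named, the counts at the adjusted p alone, the ratios, the within-genotype rankings and the look at opposite-strand reads were chosen after values were seen. Libraries of one genotype were not duplicates (chi-square over its degrees of freedom 4.13 to 17.4). Replicate numbers come from the labels, which do not say that they pair libraries. Same-numbered libraries had r above 0.1 for every number only for wild-type and Clrn1-/- (r = 0.269, 0.126 and 0.105). Over all 18 same-numbered pairs r ran from -0.277 to 0.301, with 7 above 0.1, so pairing is not established.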

Additional observations from a re-analysis of the deposited data

Results flagged for a closer look

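The effect of the Clrn2 genotype on 5 clock genes differed between mice with and without Clrn1, by the interaction term of edgeR's test. The log2 terms were 0.341 for Per1, 0.612 for Per2, 0.394 for Per3, 0.995 for Nr1d1 and 0.868 for Dbp, with adjusted p of 0.0118, 0.0257, 0.00613, 7.68e-05 and 0.000432. Of the 10 genes 5 passed where 17.4% of all genes did.

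Reads on the strand opposite to Nr1d1, which the comparisons do not use, were more frequent in the single mutants than in wild-type. Their mean level was 32.3 ± 2.65 CPM (SD, n = 3) in wild-type, 41.59 ± 2.38 CPM in Clrn1-/-, 40.69 ± 2.68 CPM in Clrn2-/- and 33.1 ± 1.49 CPM in Clrn1-/-Clrn2-/- libraries, and the libraries of either single mutant lay above all wild-type ones. Nr1d1 itself was lower than wild-type in both single mutants. The exons of Nr1d1 and Thra overlap there on opposite strands, and Thra as a whole did not pass in any comparison with wild-type (log2 fold changes of 0.003, -0.04 and -0.09). In the other 9 clock genes at most 1.58% of reads lay on the opposite strand.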

How the results depend on the processing

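No clock gene that passed changed its direction under an alternative, although library size alone turned the split of passing genes in Clrn1-/- from 2 higher and 4 lower to 4 higher and 2 lower. Of 233 values of single genes under alternatives that kept all libraries, 228 kept their direction and their side of the adjusted p, and 5 no longer passed. Of 408 values with 1 library left out, 348 kept both and 60 no longer passed. The number of clock genes called moved with the 1.5-fold limit: without it the counts were 6 for Clrn1-/- and 4 for Clrn2-/- against wild-type, 7 for the double mutant against wild-type, 6 against either single mutant and 5 for the interaction. With library size alone 1 gene was called in Clrn1-/- and 2 in the double mutant against wild-type, and with DESeq2, no filter or unstranded counts 0 in the latter. At the adjusted p alone, Clrn1-/- against Clrn2-/- gave 1 gene with DESeq2, 3 with no filter and 1 with the replicate block, which changed no other count of clock genes by over 1.5 times.

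With 1 library left out, the numbers called and passing at the adjusted p alone ranged over 0 to 2 and 4 to 7 for Clrn1-/- against wild-type, 0 to 0 and 2 to 4 for Clrn2-/-, and 0 to 1 and 4 to 7 for the double mutant. Against Clrn1-/- the double mutant gave 0 to 3 and 6 to 6, against Clrn2-/- 1 to 1 and 2 to 7, the single mutants against each other 0 to 0 and 0 to 3, and the interaction 2 to 3 and 4 to 6. The loop difference from wild-type ranged over -0.729 to -0.466, -0.473 to -0.299 and -0.396 to -0.222. The lowest count of a clock gene in a library was 429, and each genotype had 3 libraries.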
